A study of Mus musculus with 12 samples.

Results

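The interaction between short hairpin RNAs (shRNAs) against TSC22D4 and LCN13 was measured in abdominal fat of mice, using all 12 of the 12 arrays of the series. For each gene it is the difference seen with the TSC22D4 shRNA when the LCN13 shRNA was present, minus that seen when the LCN13 shRNA was absent. On a log2 scale a value of 0 means that the combined group lay where the sum of the 2 single differences would put it. The members are therefore samples, 3 in each of 4 groups, and 23185 genes were tested across them. A call below is a Benjamini-Hochberg adjusted p under 0.05 from limma, a linear model fitted across all genes.

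TSC22D4 acts on transcription and belongs to the leucine zipper proteins of the TSC22 domain family, and LCN13 is a secreted lipocalin, a small carrier of lipophilic molecules, that has been tied to insulin sensitivity. Adenoviruses and other sources of foreign nucleic acid can start an interferon response: sensors such as RIG-I, MDA5 and the toll-like receptors lead to interferon, which acts through its receptors and transcription factors on promoters of interferon-stimulated genes. In fat, the same cells also carry out fatty acid synthesis, fatty acid storage and fatty acid release under the control of insulin. In a design with 2 treatments, genes that fall to a common level with either treatment and stay there with both give an interaction above 0, and so do genes that fall with each treatment alone and return to the control level with both.

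All mice were BKS.Cg-Dock7m +/+ Leprdb/J animals, a strain with the db mutation of the leptin receptor gene, were 12 weeks old and received 4e9 plaque-forming units of adenovirus in total. The control group received the control (NC) shRNA virus alone, at 4e9. The LCN13 group received 2e9 of LCN13 shRNA virus with 2e9 of control virus, the TSC22D4 group 2e9 of TSC22D4 shRNA virus with 2e9 of control virus, and the combined group 2e9 of each gene-directed virus with 0 of control virus. Tissue was frozen 1 week after the injection. Of 28 injected animals, 7 per group, 3 per group that the submitters call representative went onto arrays, so the choice was not random. The genotype field of the control samples reads WT beside that strain name, the labels do not say which cells took up virus, and whether the animals carried the db mutation on both chromosomes is not stated in them. In each comparison with control, more shRNA virus and less control virus cannot be told apart. In the interaction the mean amounts of control virus in the 4 groups cancel to 0, which holds for any effect in proportion to that amount and for no other.

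The lowest deposited log2 value was 5.62, the median 6.31 and the highest 14.38, and arrays within a group correlated at 0.994 to 0.998 across probe sets. Adipocyte markers were present on every array, with Adipoq, the adipokine adiponectin, between 12.2 and 12.45. LCN13 replicates 5 and 6 were closer to each other than any other pair: the SD of their differences across genes was 0.124, against 0.149 to 0.216 for the other 11 pairs within a group, and 7 genes differed by over 1 log2 unit, against 53 to 109. Both stood apart from LCN13 replicate 8 in mesothelium markers, whose mean was 0.48 above the average of the 12 arrays in each of them and 0.12 below it in replicate 8. Whether the pair holds separate animals was not tested, and the counts below are also given with the pair averaged as 1 sample and with replicate 8 alone. Fewer cells of a type and less RNA per cell cannot be told apart in these bulk samples.

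**Figure D1:**
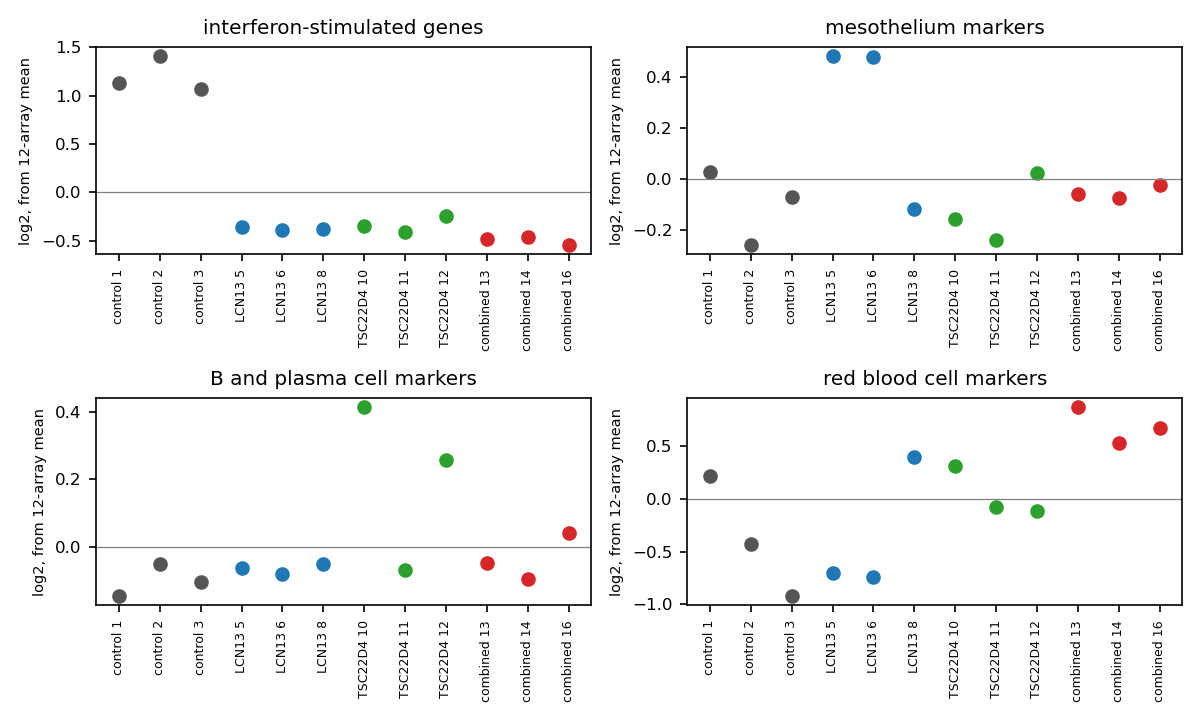
Mean log2 level of 4 marker lists on each of the 12 arrays, as the difference from the 12-array mean of each gene. Control arrays (grey) stand between 1.07 and 1.40 for interferon-stimulated genes and the other 9 arrays between -0.54 and -0.25. LCN13 replicates 5 and 6 (blue) are the highest in mesothelium markers, and the combined arrays (red) the highest in red blood cell markers.

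The shRNA targets were examined first. Tsc22d4 lay between 7.56 and 7.88 on all 12 arrays, and its interaction was -0.05 (SE 0.114, limma adjusted p = 0.988). Lcn13, listed under its current symbol Obp2a, lay between 5.71 and 5.79, near the lowest value of the table, with an interaction of -0.02 (SE 0.027, adjusted p = 0.954). The groups overlapped for Tsc22d4, and neither target was called lower where its own shRNA virus was given, so a knockdown was not seen in this tissue.

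The interaction was called for 92 genes, 0.397% of those tested. Of these, 85 were above 0 (0.367%) and 7 below 0 (0.0302%), while the median over all genes was -0.0019 and 48.5% of all genes lay above 0. With the near-identical LCN13 arrays averaged, 67 were called above 0 and 3 below, and 69 of the 92 genes remained. With LCN13 replicate 8 alone, where that lone array is assumed to vary like the others, 33 were called above 0 and 2 below, and 27 of the 92 remained. Without TSC22D4 replicate 10, TSC22D4 replicate 11 or LCN13 replicate 5 the calls above 0 numbered 46, 49 and 52. In each of these fits all 92 kept the direction of their interaction, which their choice on the same arrays makes likely.

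The called genes fell into shapes that were set by rules on the same group means, so their counts are a description. A plateau gene was called lower than control in all 3 groups given gene-directed virus with an interaction above 0, and 80 of the 92 genes were of this shape. A return gene was called in at least 1 single group but kept less than 50% of the larger single change in the combined group, or crossed to the other side, and there were 8 of these. The remaining 4 met neither rule. No gene rose to a plateau in this fit, and fits that left out 1 array gave 0 or 1. None was called in the combined group alone, again 0 or 1 without 1 array. The comparisons with control share the 3 control arrays, so a high or low control array moves all of them and the interaction together. Over all genes tested, 333 were called against control with LCN13 shRNA (1.44%; 0.397% higher, 1.04% lower), 272 with TSC22D4 shRNA (1.17%; 0.293% higher, 0.88% lower) and 311 with both (1.34%; 0.315% higher, 1.03% lower).

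The plateau genes fell by similar amounts with each gene-directed virus and by little more with both. Over the 80, the median difference from control was -1.26 with LCN13 shRNA, -1.24 with TSC22D4 shRNA and -1.35 with both. Seen as the difference that went with the TSC22D4 shRNA, that is a median of -1.24 beside control virus and of -0.09 beside LCN13 shRNA, where single genes ran from -0.82 to 0.44. Their mean level was 9.98, 10.2 and 9.94 on the control arrays, 8.61, 8.61 and 8.56 on the LCN13 arrays, 8.61, 8.53 and 8.69 on the TSC22D4 arrays, and 8.48, 8.53 and 8.43 on the combined arrays. The control arrays were apart from the rest, and the other 3 groups lay close together, with the combined arrays at or near the lowest single-shRNA array.

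The ratio of the combined difference to the sum of the 2 single differences is 1 for additive differences and 0 for a full return. It is 0.5 for a plateau at equal single differences, and higher where the combined group keeps the larger of 2 unequal ones. Over the 80 plateau genes its median was 0.539, from 0.384 to 0.67, and 67 lay between 0.4 and 0.6. In all, 151 genes were called lower in the 3 comparisons with control, the 80 plateau genes and 71 without a called interaction. All 151 had an interaction above 0, and over the 71 the ratio had a median of 0.549, from 0.397 to 0.72. The 7 genes called higher in all 3 comparisons had an interaction below 0 with a median ratio of 0.587, and the interaction was called for 0 of the 7. Where the 3 groups given gene-directed virus share a level, the interaction is equal in size to the fall from control, so a large interaction in these genes restates a large fall.

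**Figure D2:**
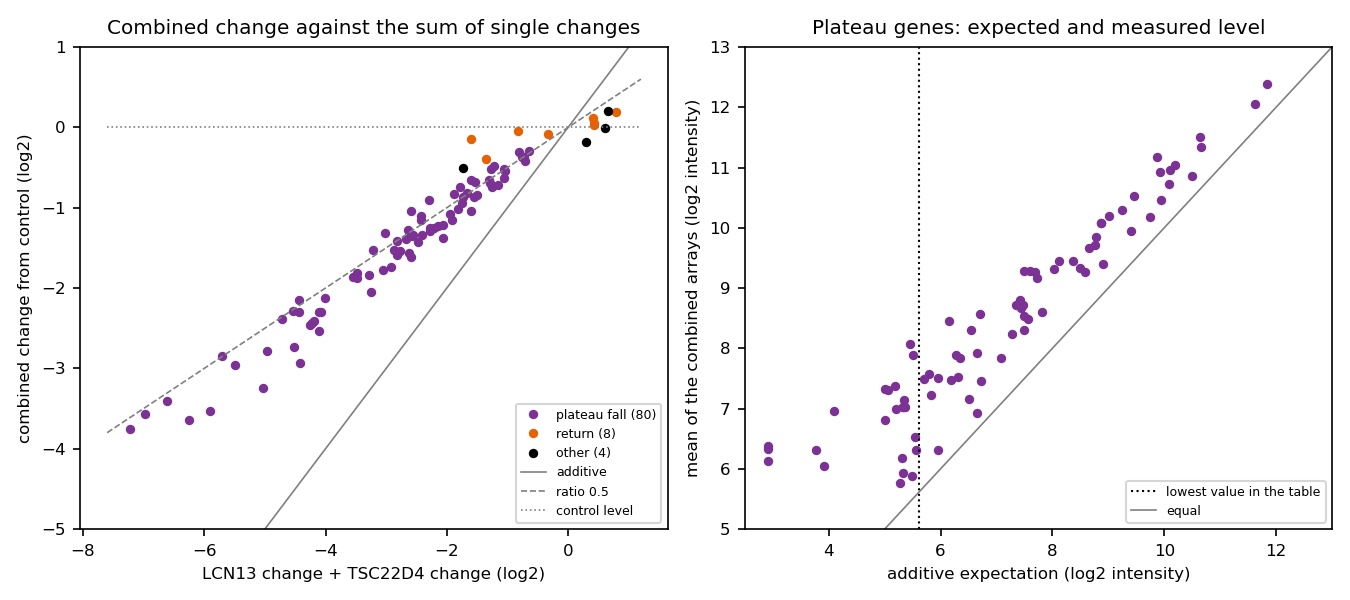
Left, the combined difference from control against the sum of the LCN13 and TSC22D4 differences (log2) for the 80 plateau, 8 return and 4 other genes, with lines for additive differences, a ratio of 0.5 and the control level. Plateau genes follow the line at 0.5 and return genes lie nearer to the control level. Right, the mean of the combined arrays against the level that additive differences would give (log2 intensity) for the plateau genes, with the lowest value of the table as a dotted line. All points lie above the line of equality, and 23 lie left of the dotted line.

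A level under the lowest table value cannot be measured, so the additive level was set against it. That level is the LCN13 mean plus the TSC22D4 mean minus the control mean. For 23 of the 80 plateau genes it lay under the lowest value of the table, 5.62, and these could not have shown an additive fall. For 57 genes it lay at or above that value, and for 49 of them above the table's median. The ratio had a median of 0.554 in the 57 and of 0.519 in the 23, and a called interaction above 0 holds it under 1 in both. The combined mean itself lay under the table's median in 7 of the 80. Background correction and normalization compress differences near the lower end, and their part in the plateau of dim genes was not tested.

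Within the plateau the combined arrays were often slightly lower than the single ones. The combined mean lay below both single means in 47 of 80 genes, between them in 22 and above both in 11, where 26.1% of all genes lay below both. The median difference between the combined mean and the average of the single means was -0.10 (range -0.73 to 0.26), and limma called 0 of the 80 for it. Over all 23185 genes that comparison gave 0 calls (0%), with 1387 at an unadjusted p under 0.05. Every combined array lay below the other 9 in 14 of the plateau genes, against 0.574% of all genes. These shares are not alike, because every control array already lay above the other 9 in all 80 plateau genes (1.8% of all genes).

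Interferon-stimulated genes were 36 of the 80 plateau genes. The list of these genes was drawn up with earlier results of the same arrays known, so it is not independent evidence of a direction. Of 54 measured members the interaction was called above 0 for 37, with a background of 0.367%, and below 0 for none. The list's median interaction was 1.27 (range -0.16 to 3.46) beside -0.0019 over all genes. On the same list the combined arrays averaged -0.54 to -0.46 from the 12-array mean, the LCN13 arrays -0.39 to -0.35 and the TSC22D4 arrays -0.41 to -0.25. Macrophage markers, which overlap this response through Fcgr1, averaged between -0.09 and 0.27 on the control arrays and between -0.14 and 0.11 on the other 9, and their part in the result was not tested.

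Promoters of 4 genes that stand for the shapes are printed next, from RefSeq on GRCm38.p6, each from 250 bases before to 50 after the gene's start and written 5′ to 3′ on the gene's strand. The letters searched on both strands were GAAA and GAAA separated by any 2 bases, the core of the interferon-stimulated response element bound by STAT and IRF proteins, and matches stand in capitals. Ifit1 and Oas1g have the motif and a plateau, Irf7 has a plateau and no match in its window, and Pdk4 is the return gene with the largest interaction. The windows are chr19:34640639-34640938 (plus strand) for Ifit1, chr5:120887564-120887863 (minus) for Oas1g, chr7:141266375-141266674 (minus) for Irf7 and chr6:5496229-5496528 (minus) for Pdk4.
Ifit1: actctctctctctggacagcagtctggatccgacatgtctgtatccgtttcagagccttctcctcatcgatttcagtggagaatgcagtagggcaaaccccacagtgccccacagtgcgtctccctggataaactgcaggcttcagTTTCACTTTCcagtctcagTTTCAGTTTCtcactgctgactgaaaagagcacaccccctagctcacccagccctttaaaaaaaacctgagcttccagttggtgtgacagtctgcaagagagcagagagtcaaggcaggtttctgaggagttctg
Oas1g: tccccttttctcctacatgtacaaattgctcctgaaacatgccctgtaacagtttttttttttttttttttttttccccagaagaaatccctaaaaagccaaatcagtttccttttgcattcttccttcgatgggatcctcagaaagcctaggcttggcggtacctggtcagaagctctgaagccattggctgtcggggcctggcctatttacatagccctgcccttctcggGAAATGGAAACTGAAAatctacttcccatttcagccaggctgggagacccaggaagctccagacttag
Irf7: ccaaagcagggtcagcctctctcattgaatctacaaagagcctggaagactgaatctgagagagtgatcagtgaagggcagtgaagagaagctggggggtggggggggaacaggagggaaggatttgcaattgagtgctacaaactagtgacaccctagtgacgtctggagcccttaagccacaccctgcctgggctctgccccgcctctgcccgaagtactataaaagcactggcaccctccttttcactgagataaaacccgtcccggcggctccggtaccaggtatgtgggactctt
Pdk4: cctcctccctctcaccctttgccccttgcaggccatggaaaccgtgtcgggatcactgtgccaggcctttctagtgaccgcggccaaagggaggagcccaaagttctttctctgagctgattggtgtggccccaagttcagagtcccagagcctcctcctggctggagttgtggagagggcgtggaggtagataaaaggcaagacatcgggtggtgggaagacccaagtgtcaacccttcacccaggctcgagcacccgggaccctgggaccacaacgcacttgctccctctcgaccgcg

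In Ifit1 the 2 matches lie on the minus strand, starting 104 and 85 bases before the gene's start, and in Oas1g 2 matches share bases at 18 and 12 before it. RefSeq windows were matched for 63 of the 80 plateau genes, and 26 of their 80 windows held the motif (32.5%), against 704 of 21141 windows of all genes tested (3.33%). Where the additive level was under the lowest table value the share was 12 of 20 windows (60%). The 12 windows of the 5 matched return genes and the 4 windows of the other called genes held it 0 times. A second motif, TTCNNNGAA, the core of STAT binding sites, was in 8.75% of plateau windows and 7.84% of all windows, and it overlapped the first in 0 plateau windows. A match is a description of letters and not a binding site, and a window without it says nothing of the factors.

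Among sensors and transcription factors of the interferon response, 6 of 8 measured members were plateau genes. Over all genes tested these were 80 of 23185, a background that also stands beside the counts of the other roles below. Irf7, the factor that amplifies interferon production, measured 12.33, 12.69 and 12.55 on the control arrays, 10.28, 10.08 and 9.93 on the LCN13 arrays, 10.08, 9.73 and 9.95 on the TSC22D4 arrays, and 9.43, 9.25 and 9.15 on the combined arrays. The groups given 1 gene-directed virus overlapped, and all combined arrays lay below them. Its interaction was 1.78 (SE 0.181, limma adjusted p = 0.00319), with a combined mean of 9.28 where additive differences would give 7.49. That is a ratio of 0.646, so Irf7 sat between a plateau and additivity, and the combined group was not called against LCN13 (-0.82, adjusted p = 0.109) or TSC22D4 (-0.65, adjusted p = 0.366).

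Dhx58, which encodes the RIG-I-like receptor LGP2, had an interaction of 2.18 (SE 0.181, adjusted p = 9.75e-04). Zbp1, a sensor of Z-form nucleic acid, gave 1.79 (SE 0.214, adjusted p = 0.00692). Ifih1, the sensor MDA5, gave 1.28 (SE 0.144, adjusted p = 0.005), and Stat2, which carries the interferon signal to the nucleus, gave 1.44 (SE 0.148, adjusted p = 0.00337). In all 4 genes the lowest control array lay above the highest of the other 9, as in all 80 plateau genes and in 1.8% of all genes. Ifih1, Stat2, Herc6, Mx2, Irgm1, Cmpk2, Adar, Lgals9, Pnpt1, H2-Q7, Isg15, Igtp and Iigp1 were chosen for mention after their values were seen.

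Of 11 RNA-binding antiviral effectors 8 were plateau genes, with the largest single interactions in Oas1g and Oas3. Oas1g, of the oligoadenylate synthetase family that activates RNase L, measured 9.90, 10.53 and 9.98 in control, 6.43, 6.48 and 6.32 with LCN13 shRNA, 6.69, 6.38 and 6.86 with TSC22D4 shRNA, and 6.31, 6.50 and 6.33 with both. The 3 groups given gene-directed virus overlapped each other at about the table's median, and the control arrays stood apart. Its interaction was 3.46 (SE 0.234, adjusted p = 4.09e-04) with a ratio of 0.521, and the additive level, 2.92, lay under the lowest table value. Oas3, of the same family, gave 3.41 (SE 0.276, adjusted p = 9.27e-04), and the related Oasl1 1.80 (SE 0.179, adjusted p = 0.00301). Probe sets of similar family members may share signal, so single Oas, Ifi200, Schlafen and Trim30 genes are uncertain.

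Ifit1, which binds viral RNA without the host cap, stayed further above the lowest table value than Oas1g. Its additive level nevertheless lay under that value, so an additive fall could not have been seen. It measured 11.87, 11.80 and 11.43 in control, 8.82, 8.81 and 8.47 with LCN13 shRNA, 8.44, 8.41 and 8.50 with TSC22D4 shRNA, and 7.93, 8.24 and 8.02 with both. All combined arrays were below all single-shRNA arrays, which overlapped each other. The interaction was 2.61 (SE 0.187, adjusted p = 4.44e-04) with a ratio of 0.582. Ifit2, of the same family, had means of 9.59, 7.34, 7.31 and 7.31 in the control, LCN13, TSC22D4 and combined groups, with a ratio of 0.503 and an interaction of 2.25 (SE 0.132, adjusted p = 2.55e-04). The additive level of Ifit2 lay under the lowest table value as well.

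**Figure D3:**
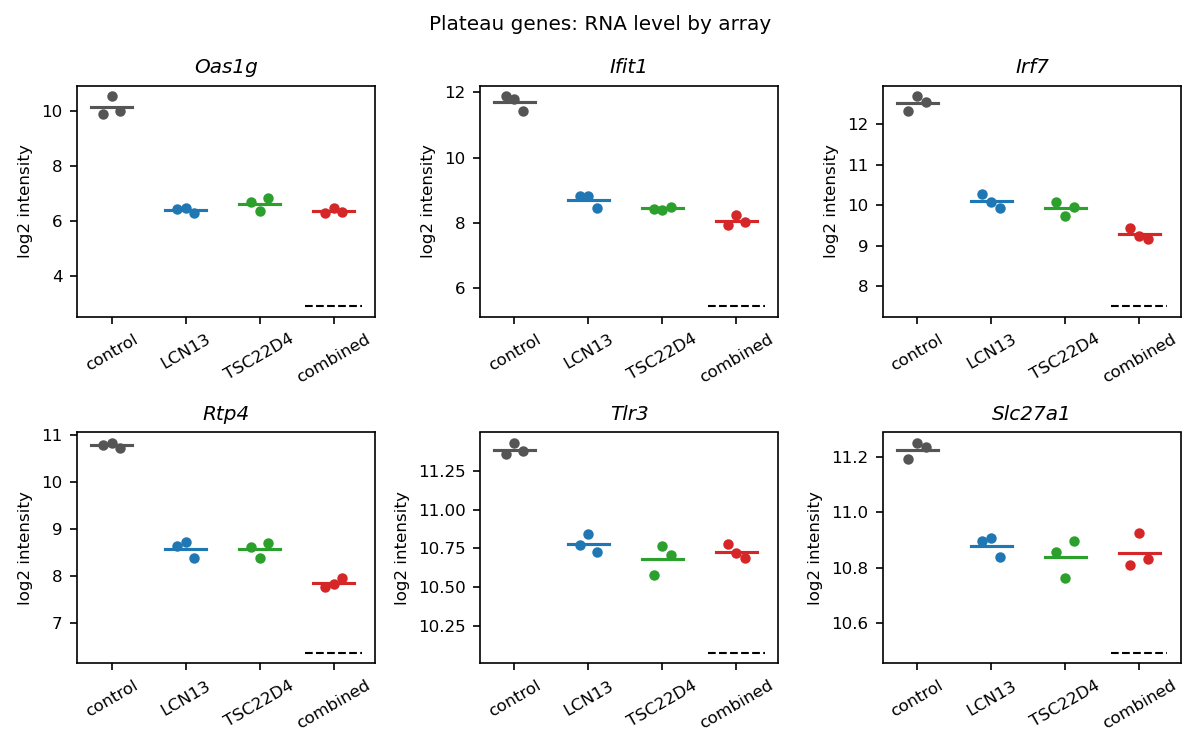
Log2 level of 6 plateau genes on each array, by group (3 arrays each). Points are arrays, lines are group means and the dashed line is the level that additive differences would give in the combined group. Every control array lies above the other 9 in each panel, and the combined arrays lie above the dashed line. For Oas1g and Ifit1 that line is under the lowest value of the table.

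In the ISG15 conjugation pathway the interaction was called for 3 of 5 genes. Usp18, the protease that removes ISG15 and dampens interferon signalling, gave 2.37 (SE 0.215, adjusted p = 0.00184), and Herc6, the ligase of the pathway in mice, gave 1.68 (SE 0.178, adjusted p = 0.00354). Ube2l6, the conjugating enzyme, was not a plateau gene: it measured 11.53, 11.46 and 11.12 in control, 10.26, 10.31 and 10.64 with LCN13 shRNA, 10.72, 10.59 and 10.53 with TSC22D4 shRNA, and 10.99, 10.75 and 10.85 with both. Its combined arrays lay between the control arrays and the single-shRNA arrays without overlap. The interaction was 1.22 (SE 0.182, adjusted p = 0.023), and the combined group kept 52.6% of the larger single difference, just outside the rule for a return. The call held in 2 of 12 fits that each left out 1 array. Isg15 itself was dim, with 6.06 to 6.29 in control and 5.79 to 5.96 elsewhere, and its interaction of 0.21 was not called (adjusted p = 0.64).

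Of 9 measured GTPases 3 were plateau genes. Mx2, an antiviral dynamin-like protein, gave 2.13 (SE 0.244, adjusted p = 0.00526) and Irgm1, an immunity-related GTPase, 1.26 (SE 0.181, adjusted p = 0.0197). Of 12 fits without 1 array, Mx2 passed in 12 and Irgm1 in 4. Igtp and Iigp1, of the immunity-related GTPases that interferon gamma induces, had ratios of 0.27 and 0.195, but their interactions of 0.81 (adjusted p = 0.453) and 0.61 (adjusted p = 0.57) were not called. Igtp measured 9.75, 9.89 and 10.39 on the LCN13 arrays, so LCN13 replicates 5 and 6 were its lowest, and the remaining 9 arrays lay between 10.51 and 11.12.

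The Ifi200 and Schlafen families held 6 plateau genes among 7 measured. Ifi213 and Ifi209, of the family of nuclear DNA sensors, gave 3.21 (SE 0.219, adjusted p = 4.09e-04) and 2.86 (SE 0.351, adjusted p = 0.00827). Slfn1, a Schlafen protein of T cell quiescence, gave 2.54 (SE 0.206, adjusted p = 9.27e-04). The additive level of these 3 genes lay between 2.92 and 4.09, under anything in the table.

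Of 14 other measured effectors 11 were plateau genes. Rtp4, a chaperone of membrane receptors that interferon induces, measured 10.78, 10.82 and 10.71 in control, 8.62, 8.71 and 8.37 with LCN13 shRNA, 8.61, 8.37 and 8.69 with TSC22D4 shRNA, and 7.75, 7.82 and 7.95 with both. As in Irf7, the combined arrays were below all others. Its ratio was 0.664 and its interaction 1.48 (SE 0.144, adjusted p = 0.00266). Cmpk2, a mitochondrial nucleotide kinase, gave 1.77 (SE 0.123, adjusted p = 4.09e-04), and Trim30a, a ubiquitin ligase of the tripartite motif family, 2.30 (SE 0.261, adjusted p = 0.00522).

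Samd9l, an antiviral factor and growth suppressor, was 1 of the 2 genes called between the combined and the LCN13 groups (0.00863% of those tested). It measured 9.63, 9.62 and 9.62 in control, 8.98, 8.97 and 8.97 with LCN13 shRNA, 8.40, 8.47 and 8.52 with TSC22D4 shRNA, and 8.56, 8.56 and 8.70 with both. The combined arrays lay below the LCN13 arrays (-0.37, adjusted p = 0.0445) and above those of TSC22D4, by 0.15 on average (adjusted p = 0.497). So the combined arrays lay between those of the single groups without overlap and nearer to TSC22D4, and the interaction was 0.79 (SE 0.055, adjusted p = 4.09e-04). The other gene, Dnajb9, an endoplasmic reticulum chaperone, was 0.36 higher than with LCN13 shRNA alone (adjusted p = 0.0445; 0.00431% called higher and 0.00431% called lower), and its interaction of 0.21 was not called (adjusted p = 0.228). The number of calls in this comparison changed with single arrays: 94 genes were called without LCN13 replicate 8, 11 without control replicate 3 and 4 without TSC22D4 replicate 12. There were 0 without LCN13 replicate 5 or 6, control replicate 2, TSC22D4 replicate 11 or combined replicate 13 or 14, 1 without any 1 of the other 3 arrays, and 0 with LCN13 replicates 5 and 6 averaged. Between the combined and the TSC22D4 groups 0 genes were called (0%), with 1602 at an unadjusted p under 0.05.

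Outside the list stood 44 of the plateau genes. Several are also known as interferon-induced. Trim30d gave 2.33 (SE 0.308, adjusted p = 0.0146), Phf11b, a PHD finger protein, 1.87 (SE 0.272, adjusted p = 0.0203), and H2-T24, a nonclassical MHC class I gene, 1.80 (SE 0.208, adjusted p = 0.00532). Adar, which edits double-stranded RNA, gave 0.91 (SE 0.121, adjusted p = 0.0146). At the ends of the ratio stood Lgals9, the lectin galectin-9, with 0.67 and an interaction of 0.68 (SE 0.092, adjusted p = 0.0147), and Pnpt1, a mitochondrial RNA-degrading enzyme, with 0.384 and 0.50 (SE 0.072, adjusted p = 0.0203). H2-Q7, another nonclassical class I gene, had a ratio of 0.40 and combined arrays of 7.45, 7.50 and 7.59 at the upper end of the single-shRNA arrays, which reached 7.50. Of 12 fits without 1 array, H2-T24 passed in 12, Trim30d in 11, Adar in 10 and Lgals9 in 8. Phf11b passed in 6, H2-Q7 in 5 and Pnpt1 in 4.

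Bright plateau genes showed the shape far from the lower end of the table. Tlr3, the endosomal receptor for double-stranded RNA, measured 11.35, 11.43 and 11.38 in control, 10.77, 10.84 and 10.73 with LCN13 shRNA, 10.58, 10.77 and 10.71 with TSC22D4 shRNA, and 10.78, 10.72 and 10.69 with both. The 3 groups given gene-directed virus overlapped, and the control arrays were apart. Its interaction was 0.65 (SE 0.070, adjusted p = 0.00356) with a ratio of 0.502 and an additive level of 10.08. It was the 1 member called among 13 measured upstream sensors, whose median was 0.20.

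Slc27a1, the fatty acid transport protein FATP1, was the 1 plateau gene among 18 measured genes of triglyceride synthesis and storage. It measured 11.19, 11.25 and 11.24 in control, 10.90, 10.91 and 10.84 with LCN13 shRNA, 10.86, 10.76 and 10.90 with TSC22D4 shRNA, and 10.81, 10.93 and 10.83 with both. The 3 groups given gene-directed virus overlapped below the control arrays. The interaction was 0.36 (SE 0.058, adjusted p = 0.0367) with a ratio of 0.507. It passed in 1 of 12 fits that each left out 1 array, the largest adjusted p being 0.106, so the call rests on the full set of arrays.

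For antigen presentation, all 14 genes measured had an interaction above 0, with a median of 0.28, and 1 was called: Nlrc5, the transactivator of MHC class I genes, at 0.81 (SE 0.110, adjusted p = 0.0147). H2-T23, a nonclassical class I gene, had 0.86 (adjusted p = 0.353), and Psmb8, an immunoproteasome subunit, 0.78 (adjusted p = 0.336). Interferons, their receptors and kinases had a median of -0.02 over 13 genes and chemokines and cytokines 0.04 over 24, with 0 called in each. Cxcl10, an interferon-induced chemokine, had 0.61 (adjusted p = 0.74), and its combined arrays, at 7.18, 7.24 and 7.19, lay at the low end of single-shRNA arrays that spread from 7.16 to 8.01.

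**Figure D4:**
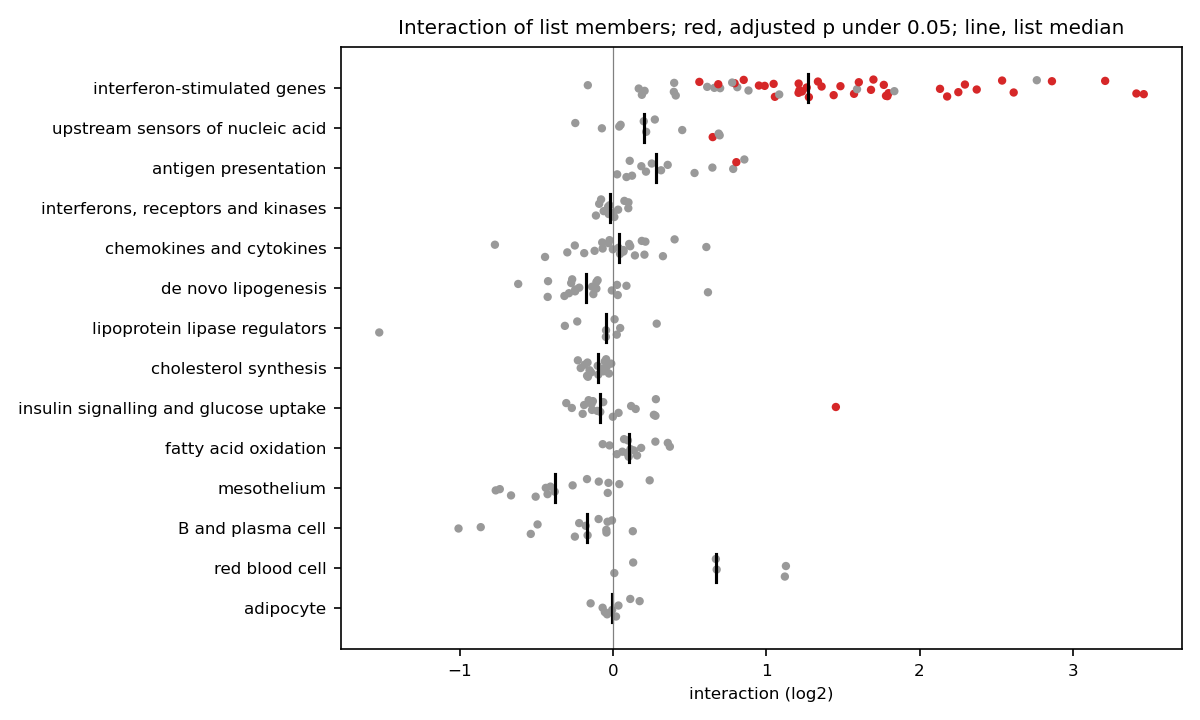
Interaction (log2) of each measured member of 14 gene lists. Points are genes, red where the limma adjusted p is under 0.05, and the black line is the list's median. Interferon-stimulated genes have a median of 1.27, and Pdk4 is the red point among genes of insulin signalling and glucose uptake at 1.45.

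The 8 return genes lay nearer to control with both gene-directed viruses than with 1 of them. They kept between 8.8% and 48.4% of the larger single difference, and in 5 of the 8 the combined and control arrays overlapped. Of these, 4 had fallen with a single shRNA (interaction above 0) and 4 had risen. None of the 8 was called for the combined group against either single group, so the call rests on the interaction and not on a direct contrast. Without 1 array the calls were less firm than on the plateau: 42 of the 92 called genes passed in all 12 such fits, and all 42 were plateau genes. With a marker mean in the model, 4 of the 8 were still called for mesothelium, 4 for red blood cells and 0 for B and plasma cells. With LCN13 replicates 5 and 6 averaged, 5 of the 8 were still called, and with replicate 8 alone 0.

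Pdk4, the kinase that switches off pyruvate dehydrogenase and thereby spares glucose, was the return gene with the largest interaction. It measured 11.57, 11.19 and 11.38 in control, 10.77, 10.63 and 10.39 with LCN13 shRNA, 10.61, 10.52 and 10.54 with TSC22D4 shRNA, and 11.38, 11.35 and 10.95 with both. All combined arrays lay above all single-shRNA arrays, and 2 of them lay among the control arrays. Pdk4 fell by 0.78 with LCN13 shRNA (adjusted p = 0.027) and by 0.82 with TSC22D4 shRNA (adjusted p = 0.024), and the combined difference from control was -0.15 (adjusted p = 0.85).

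The TSC22D4 shRNA thus went with a Pdk4 level 0.82 lower beside control virus and 0.63 higher beside LCN13 shRNA, the latter not called (adjusted p = 0.193). The interaction was 1.45 (SE 0.196, adjusted p = 0.0147). It was called in 9 of 12 fits without 1 array, where it ran from 1.35 to 1.59, and was lost without TSC22D4 replicate 10 or 11 or combined replicate 14, with an adjusted p of at most 0.0535. No other gene was called among 19 measured genes of insulin signalling and glucose uptake, whose median was -0.08.

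Mbnl3, an RNA-binding splicing regulator, measured 9.62, 9.32 and 9.41 in control, 8.77, 8.53 and 8.64 with LCN13 shRNA, 8.79, 9.04 and 8.86 with TSC22D4 shRNA, and 9.04, 9.03 and 9.12 with both. Its combined arrays lay below all control arrays and met the highest TSC22D4 array, so the return was partial, with 48.4% of the LCN13 difference kept. The interaction was 0.97 (SE 0.129, adjusted p = 0.0147), and it was lost only without TSC22D4 replicate 10 among the fits that left out 1 array (adjusted p = 0.0511).

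Arrdc3, an arrestin-domain protein that acts on beta-adrenergic receptors and energy use, measured 9.72, 9.73 and 9.65 in control, 9.15, 9.15 and 9.38 with LCN13 shRNA, 9.31, 9.30 and 9.42 with TSC22D4 shRNA, and 9.66, 9.78 and 9.54 with both. Control and combined arrays overlapped and lay above all single-shRNA arrays. Arrdc3 kept 8.8% of its LCN13 difference, and the interaction was 0.79 (SE 0.105, adjusted p = 0.0147). It was lost without LCN13 replicate 5 or TSC22D4 replicate 10 or 11, with an adjusted p of at most 0.0531. LCN13 replicates 5 and 6 were its lowest arrays, and replicate 8 lay among the TSC22D4 arrays.

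Saraf, a regulator of store-operated calcium entry, moved least of the genes that had fallen. Its combined arrays measured 9.91, 9.94 and 10.03, above the 9.82 to 9.90 of the single groups, and the highest of them lay among the control arrays of 9.99 to 10.07. The interaction was 0.26 (SE 0.044, adjusted p = 0.0492), and it passed in 2 of 12 fits without 1 array.

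Podxl, a sialomucin of podocytes, endothelium and mesothelium, led the return genes with an interaction below 0. It measured 9.28, 9.04 and 9.01 in control, 9.62, 9.62 and 9.57 with LCN13 shRNA, 9.34, 9.40 and 9.49 with TSC22D4 shRNA, and 9.39, 9.26 and 9.25 with both. The LCN13 arrays stood above the rest, and the combined arrays overlapped both control and TSC22D4. Its interaction was -0.60 (SE 0.100, adjusted p = 0.0443), and it passed in 1 of 12 fits without 1 array. Mesothelium markers, of which 15 of 15 were measured and 0 called, averaged 0.48, 0.48 and -0.12 on the LCN13 arrays, from -0.26 to 0.03 in control, from -0.24 to 0.02 with TSC22D4 shRNA and from -0.07 to -0.02 with both. They were high on LCN13 replicates 5 and 6 and not on replicate 8, where Podxl was high as well. The interaction of Podxl was -0.54 with the mean of these markers in the model (adjusted p = 0.135), -0.64 with B and plasma cell markers (adjusted p = 0.13), -0.64 with red blood cell markers (adjusted p = 0.0633) and -0.59 with LCN13 replicates 5 and 6 averaged (adjusted p = 0.137), so the call was lost in each.

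Plec, which encodes the cytoskeletal linker plectin, measured 8.82 to 8.86 with LCN13 shRNA and 8.49 to 8.73 on the other 9 arrays. Its interaction was -0.40 (SE 0.058, adjusted p = 0.0197), called in 6 of 12 fits without 1 array. Eif5a, the hypusine-carrying translation factor, measured 8.75 to 8.83 with LCN13 shRNA and 8.48 to 8.70 elsewhere, with an interaction of -0.38 (SE 0.054, adjusted p = 0.0202) called in 4 of 12. In both genes the LCN13 group stood apart, and the combined mean lay nearer to control than the LCN13 mean did. The combined arrays overlapped control in Plec and not in Eif5a.

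Mrps2, a protein of the small mitochondrial ribosomal subunit, was the return gene led by TSC22D4 shRNA. It measured 9.55, 9.62 and 9.55 there, 9.24 to 9.32 in control, 9.37 to 9.45 with LCN13 shRNA and 9.37 to 9.44 with both. The combined arrays overlapped those of LCN13 and lay above control. The interaction was -0.30 (SE 0.046, adjusted p = 0.031), and it passed in 2 of 12 fits without 1 array.

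**Figure D5:**
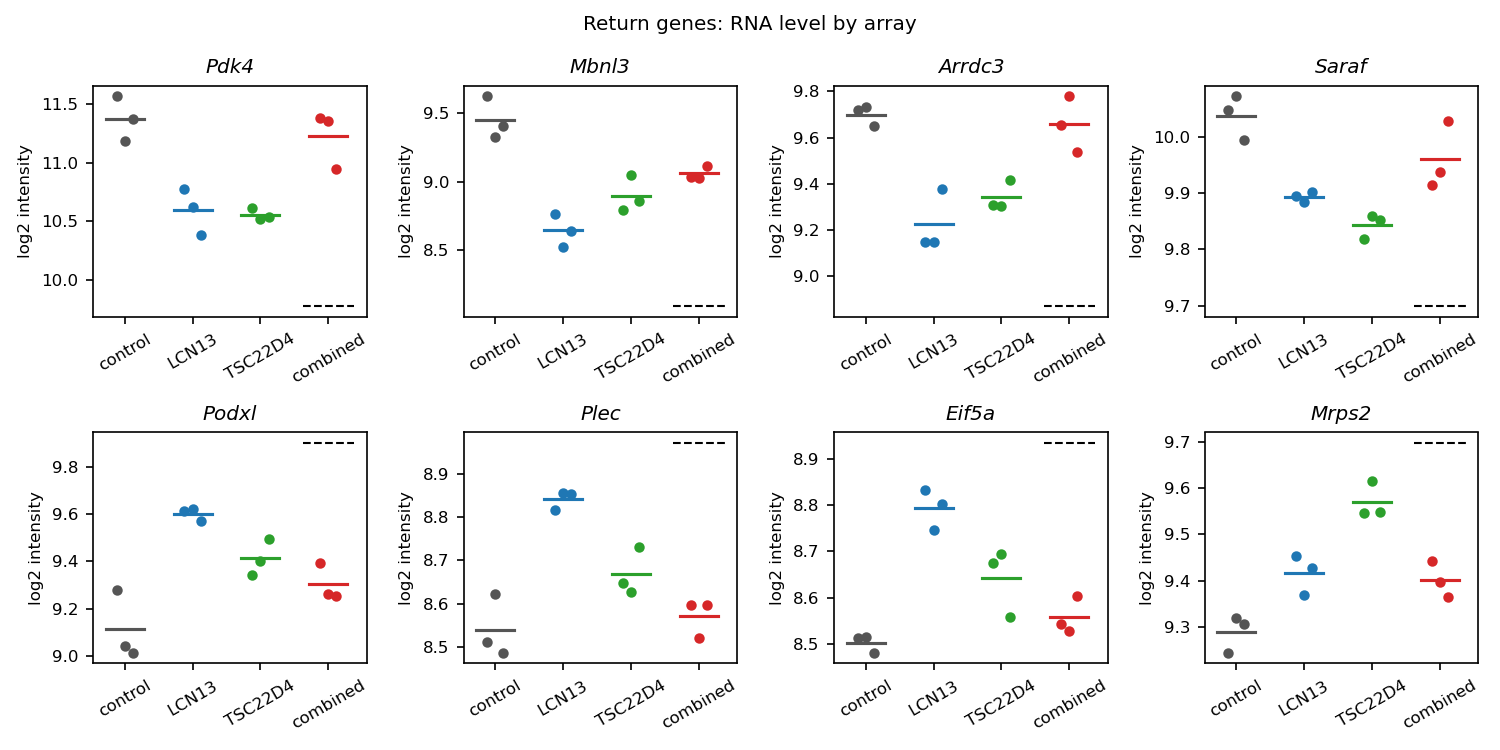
Log2 level of the 8 return genes on each array, by group (3 arrays each). Points are arrays, lines are group means and the dashed line is the level that additive differences would give in the combined group. In the upper row single-shRNA groups lie below control, in the lower row above, and each combined mean lies nearer to control than the group with the larger single difference.

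Beside Ube2l6, 3 called genes fitted neither shape, and all had an interaction below 0. Des, the intermediate filament of muscle, measured 9.21 to 9.30 in control, 9.56 to 9.63 with LCN13 shRNA, 9.47 to 9.61 with TSC22D4 shRNA and 9.38 to 9.51 with both. The combined arrays overlapped those of TSC22D4 and lay above control. Its interaction was -0.45 (SE 0.064, adjusted p = 0.018), called in 7 of 12 fits without 1 array, and the other 11 measured muscle markers had 0 calls. Rab11b, a GTPase of recycling endosomes, measured 8.05 to 8.12 in the combined group, below all other 9 arrays, which began at 8.21. Its interaction was -0.47 (SE 0.063, adjusted p = 0.0147), although 0 of its 3 differences from control were called. Mrto4, a ribosome assembly factor, gave -0.61 (SE 0.099, adjusted p = 0.0387), with combined arrays of 7.88 to 7.93 among the control arrays of 7.77 to 8.00 and single-shRNA arrays of 8.14 to 8.30. Rab11b passed in 8 and Mrto4 in 3 of 12 fits without 1 array.

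Some genes returned in level without passing the interaction test. In all, 443 genes were called in at least 1 single comparison, and 101 of them kept under 50% of the larger single difference in the combined group. Rises were kept less than falls: the median share kept was 52.6% over 152 genes with a larger single rise and 92.3% over 291 with a larger single fall. The genes were chosen for a large single difference, which by itself makes a smaller difference in another group likely, and these shares carry no test. Nearest to the threshold among them were Nemp1, a nuclear envelope protein, with 0.33 (adjusted p = 0.0554), and Adamts10, a metalloprotease of the ADAMTS family, with -0.41 (adjusted p = 0.0573).

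Angptl8, the insulin-induced inhibitor of lipoprotein lipase activity, was the clearest such gene in size. It measured 9.26, 9.29 and 8.55 in control, 9.16, 9.31 and 9.74 with LCN13 shRNA, 10.69, 10.94 and 10.55 with TSC22D4 shRNA, and 9.69, 9.10 and 9.93 with both. The TSC22D4 arrays stood above the other 9, and the combined arrays overlapped those of LCN13 and control. The TSC22D4 difference was 1.70 (adjusted p = 0.015) and the combined one 0.54 (adjusted p = 0.51), but the interaction of -1.52 (SE 0.374) was not called, at an adjusted p of 0.243.

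Fatty acid synthesis showed no called interaction. Of 20 measured genes of de novo lipogenesis 16 had a value below 0, with a median of -0.18, and 0 were called. Srebf1, the transcription factor SREBP1, measured 9.78, 9.88 and 9.63 in control, 10.01, 9.90 and 10.12 with LCN13 shRNA, 10.36, 10.16 and 10.18 with TSC22D4 shRNA, and 10.11, 10.01 and 10.05 with both. Its interaction was -0.43 (SE 0.111, adjusted p = 0.302), with the combined arrays inside the range of the LCN13 arrays. Gpam, the first enzyme of triglyceride synthesis, had -0.53 (adjusted p = 0.336), and Fasn, fatty acid synthase, -0.25 (adjusted p = 0.904). Acacb, the acetyl-CoA carboxylase that restrains fatty acid oxidation, had the opposite sign, 0.62 (adjusted p = 0.412).

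Other metabolic lists also had 0 calls, with small values. All 17 measured genes of cholesterol synthesis lay below 0 with a median of -0.10, and 13 of 15 genes of fatty acid oxidation lay above 0 with a median of 0.10, where 48.5% of all genes lay above 0. The interaction was called for 0 of 17 single readouts of adipose metabolism and inflammation, and 5 of them had an unadjusted p under 0.05, against 7.08% of all genes. The outermost of these were Angptl8 and Saa3, an acute phase protein of fat, with -1.25 (SE 0.451, adjusted p = 0.571). Highest was Pck1, which makes the glycerol backbone of triglycerides, with 0.31 (SE 0.402, adjusted p = 0.965), a value smaller than its error. Pparg, the master regulator of fat cells, had -0.15 (SE 0.059, adjusted p = 0.653).

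Markers of other cells were set beside these values. The 6 measured of 12 red blood cell markers all had an interaction above 0, with a median of 0.67 and 0 called, and their mean was 0.53 to 0.87 on the combined arrays and -0.92 to 0.22 in control. For 14 markers of B and plasma cells the median was -0.17, with a mean of -0.07 to 0.41 on the TSC22D4 arrays and -0.15 to 0.04 elsewhere. The number of plateau genes was 58 with the mesothelium mean in the model, 61 with the red blood cell mean and 48 with the B and plasma cell mean, and all 92 called interactions kept their sign in each. Of the 8 return genes, 4, 4 and 0 were still called in these fits. Adipocyte markers had a median of -0.0052 over 9 genes. Cd209a, a lectin of dendritic cells and macrophages, had -0.90 (SE 0.169, adjusted p = 0.0833), and Fcgr1, an interferon-induced Fc receptor, 1.45 (SE 0.321, adjusted p = 0.188). The part of these cells in the results was not tested.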

How the data were processed

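RNA of abdominal fat was hybridised to Affymetrix arrays, 1 per animal. The authors deposited 1 log2 value per probe set and array, made with RMA per the submitters' processing notes, with version and settings not given in the sources used. Sorted columns differed by at most 0.00188, so all arrays had been brought to 1 distribution. Of 25206 probe sets, 23185 had 1 gene symbol and were tested, 0 had several and 2021 had none. Symbols were updated through a RefSeq table of GRCm38.p6. Groups follow the sample titles, with 3 arrays in each.

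A model with 1 mean per group was fitted over the 12 arrays with lmFit, contrasts.fit and eBayes of limma (version 3.58.1, R 4.3.3), with 8 residual and 1.38 prior degrees of freedom. The tests are two-sided, with p-values adjusted over all genes within each comparison and no filter on dim genes. The interaction test was also run on simulated data with independent noise for each gene and array. That simulation had no lowest value, no shift shared across genes and no near-identical arrays, so it does not address those. The comparisons, the rules for shapes and 34 gene lists with 541 measured genes were chosen with earlier results of these data known. Named are the 15 largest called interactions in each direction, up to 10 per shape, up to 10 candidates for a return, up to 4 per list, the targets, 17 readouts, and the genes given in the text as chosen later. Predicted genes, RNA genes and chemosensory receptors are not named by rank. Alternatives changed the weights, the variance model, filters, thresholds, scale, covariates and arrays. The number of arrays limits the precision.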

Additional observations from a re-analysis of the deposited data

Results flagged for a closer look

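The results listed here are those where the difference seen with TSC22D4 shRNA was not the same beside LCN13 shRNA as beside control virus. The rule was the limma test of the interaction at an adjusted p under 0.05. The results are 92 genes, 85 above 0 and 7 below. Among the named plateau genes the values were, in order of size, Oas1g with 3.46, Oas3 with 3.41, Ifi213 with 3.21, Ifi209 with 2.86, Ifit1 with 2.61, Slfn1 with 2.54, Usp18 with 2.37, Trim30d with 2.33 and Trim30a with 2.30. Next in size were Ifit2 with 2.25, Dhx58 with 2.18, Mx2 with 2.13, Phf11b with 1.87, H2-T24 with 1.80, Oasl1 with 1.80, Zbp1 with 1.79, Irf7 with 1.78 and Cmpk2 with 1.77. These were followed by Herc6 with 1.68, H2-Q7 with 1.56, Rtp4 with 1.48, Stat2 with 1.44, Ifih1 with 1.28, Irgm1 with 1.26, Adar with 0.91, Nlrc5 with 0.81 and Samd9l with 0.79. The smallest were Lgals9 with 0.68, Tlr3 with 0.65, Pnpt1 with 0.50 and Slc27a1 with 0.36. The return genes were Pdk4 with 1.45, Mbnl3 with 0.97, Arrdc3 with 0.79, Saraf with 0.26, Podxl with -0.60, Plec with -0.40, Eif5a with -0.38 and Mrps2 with -0.30. The genes of neither shape were Ube2l6 with 1.22, Mrto4 with -0.61, Des with -0.45 and Rab11b with -0.47. Groups of 3 arrays are too small for the test of a single outlying array used here.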

How the results depend on the processing

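The number of called interactions depended on the arrays and the threshold, their direction did not: all 92 kept their sign under each alternative that gave them a value (84 of 84 among genes with a mean of at least 7). The 92 were chosen for a call on these same arrays, so a kept sign was likely from the start. Without 1 array, calls above 0 ran from 46 to 93, calls below 0 from 1 to 11, plateau genes from 46 to 88, return genes from 1 to 10 and other genes from 0 to 7. In the same fits, calls of combined against LCN13 ran from 0 to 94, against TSC22D4 from 0 to 4 and against the mean of both from 0 to 1. Calls below 0 rose without control replicate 1 (11) and fell without control replicate 2 (4), LCN13 replicate 5 (1) or 8 (2), TSC22D4 replicate 10 (1), or combined replicate 13 (2) or 14 (3). Plateau genes fell without LCN13 replicate 5 (50), TSC22D4 replicate 10 (46) or 11 (48), or combined replicate 13 (52). At an adjusted p under 0.01, calls above 0 and plateau genes were 42 each, and calls below 0, return genes, other genes and calls against LCN13 were 0. With array weights, calls below 0 were 12, return genes 18, other genes 2, calls against LCN13 14 and against the mean of both 3. With eBayes trend and robust, calls below 0 were 4, against LCN13 8 and against the mean of both 1, and with genes of a mean of at least 7 the last 2 counts were 8 and 1. On the scale of 2 to the power of the value, calls below 0 were 4 and return genes 5. With B and plasma cell markers as covariate, calls above 0 were 49, plateau genes 48, return genes 2 and calls against LCN13 0. Of the 8 return genes named above, 0 were still called there. With red blood cell markers other genes were 12 and calls against LCN13 1, and with mesothelium markers, or with the arrays of both groups fitted alone, the last was 0. With LCN13 replicates 5 and 6 averaged, chosen after seeing the data, calls below 0 were 3, return genes 4, other genes 2 and calls against LCN13 0. With LCN13 replicate 8 alone, also chosen later, calls above 0 were 33, below 0 2, plateau genes 30, return genes 4, other genes 0 and calls against LCN13 0. With a return set at under 0.25 of the larger single difference, return genes were 4 and other genes 8, and at under 0.75 other genes were 2. The comparison with the mean of both singles was added after seeing the data. The interaction of Tsc22d4, called in no fit, ran from -0.15 without control replicate 3 to 0.0044 without control replicate 2, and that of Pck1 was -0.16 with B and plasma cell markers as covariate. The causes of these shifts were not tested. No paired analysis was possible because the replicate numbers of the labels are not shared between groups. Differences near the lowest value of the table are compressed, which limits what dim genes can show.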

Other observations

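Probe sets without a gene symbol were also fitted. Of 2021 such probe sets 5 were called for the interaction, 4 of them above 0. They are not analysed further here.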
